A study of Mus musculus with 39 samples.

Results

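The 9 genes described here are members of the TGF-beta pathway, taken by symbol from the count table: the ligand genes Tgfb1, Tgfb2 and Tgfb3, the activin subunit gene Inhba, the receptor genes Tgfbr1 and Tgfbr2, the matrix-protein gene Ltbp2, and Tgfbi and Skil, which TGF-beta is known to induce. The symbols were given, not picked by a cut on measured values, though they were chosen with earlier results of these data known. They were all found among the 30012 gene names of the table. All 9 also passed the filter on low counts, which left 14419 genes to test. The study gave complement protein C1q to cultured lung fibroblasts of WT C57BL/6 mice and sequenced the 5′ ends of their poly(A) RNA. Treated cells received C1q at 1, 10 or 100 µg/ml, each for 2, 24, 48 or 72 h, and untreated cells were taken at 0 h. Each of these 13 groups had 3 libraries, 39 in all.

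All groups shared the same preparation. Lung cells were depleted of cells bearing CD45, CD31, EpCAM, CD146 or Ter119, grown in serum, passaged into 24-well plates and starved of serum for 24 h. The labels do not say how many mice were used, whether cells were pooled, or whether libraries of a group came from separate cultures. There were no untreated cells at 2 to 72 h and no group that received buffer alone, so an effect of C1q and one of time in culture cannot be told apart in a comparison with untreated cells. Comparisons of doses at the same time share the time in culture and do not have this limit. The labels do not say whether the amount of buffer changed with dose. Without a group of buffer alone, an effect of C1q and one of buffer cannot be told apart there.

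TGF-beta ligands are secreted as latent complexes, held in the matrix with latency proteins and released by integrins, proteases or thrombospondin. The freed ligand brings the type II receptor TGFBR2 together with the type I receptor TGFBR1, which phosphorylates SMAD2 and SMAD3. Activin A, a dimer of the subunit that Inhba encodes, uses its own receptors and the same SMADs. In lung fibroblasts the pathway is known for driving matrix production and contractile genes, and it induces its own brakes, among them the SMAD repressor SnoN, the product of Skil.

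Inhba rose at all 3 doses at 2 h and Tgfb2 at the lower 2, while Tgfbr2 rose from 24 h on, so the 250 bases before their RefSeq start sites are shown for these 3 genes. The sequences come from RefSeq, build GRCm38.p6, and are written 5′ to 3′ on the strand of the gene, and 7 of the 9 genes had an entry. Capitals mark matches to a searched motif on either strand. The motif of the factor AP-1 was spelled TGANTCA, the cAMP response element TGACGTCA, the element bound by SMADs CAGACA, the GC box of the factor SP1 GGGCGG and the TATA box TATAAA, and none of these overlap another in the windows shown. The Inhba window is chr13:16011601-16011850 on the plus strand, inside the annotated span of the gene, and overlaps no GENCODE exon.
Inhba: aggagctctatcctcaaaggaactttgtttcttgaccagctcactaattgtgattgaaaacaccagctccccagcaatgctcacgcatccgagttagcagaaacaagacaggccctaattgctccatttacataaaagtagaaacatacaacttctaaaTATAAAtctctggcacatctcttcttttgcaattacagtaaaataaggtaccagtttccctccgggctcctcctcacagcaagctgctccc
The Tgfb2 window is chr1:186705990-186706239 on the minus strand, also inside the annotated span of its gene, and overlaps an exon of the GENCODE gene Gm29491 on the other strand.
Tgfb2: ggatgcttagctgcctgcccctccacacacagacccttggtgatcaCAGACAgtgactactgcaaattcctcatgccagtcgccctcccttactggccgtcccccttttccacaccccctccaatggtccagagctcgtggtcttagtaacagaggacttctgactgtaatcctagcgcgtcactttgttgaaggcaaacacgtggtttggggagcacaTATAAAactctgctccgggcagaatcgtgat
The Tgfbr2 window is chr9:116175364-116175613 on the minus strand, just upstream of the gene, and overlaps no GENCODE exon.
Tgfbr2: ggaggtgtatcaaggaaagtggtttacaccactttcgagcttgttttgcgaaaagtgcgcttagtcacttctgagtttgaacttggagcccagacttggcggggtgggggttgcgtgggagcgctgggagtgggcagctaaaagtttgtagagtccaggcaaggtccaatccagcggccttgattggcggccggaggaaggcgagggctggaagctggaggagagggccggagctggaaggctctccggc
The Inhba window holds TATAAA, beginning 91 bases before the start. The Tgfb2 window holds TATAAA 31 bases and CAGACA 204 bases before it, and the Tgfbr2 window holds none of the 5 motifs. Of all 32851 promoter windows of this length, 12.4% held TATAAA on one strand or the other, 17.1% CAGACA, 32.7% GGGCGG, 6.75% TGANTCA and 1.55% TGACGTCA. These matches describe letters, not sites shown to be used.

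The libraries held 1806106 to 3012518 counts, and values below are CPM, that is, counts relative to the TMM-scaled total of their library. Library 3 of the cells given 1 µg/ml for 24 h stood apart from the other libraries of its group, at 12.5 on the first principal component against -0.511 and 0.555, and the tests of the 9 genes that use it were repeated without it. Its column name is spelled differently from those of libraries 1 and 2. That spelling is shared by all 24 h libraries of 10 and 100 µg/ml, which lay at 4.77 to 11.4. At 24 h, 1 µg/ml and the higher doses thus differ largely in spelling as well as in dose. All untreated, 2 h and 72 h libraries have the common spelling, that of libraries 1 and 2 of 1 µg/ml for 24 h. Most 24 h libraries thus differ in spelling from untreated cells and from other times. At 48 h, libraries 1 and 2 of 1 µg/ml have the other spelling and the remaining libraries the common one. What the spelling stands for is not given, and its part was not tested. All 15 fibroblast markers passed the filter and summed to up to 11260 CPM at 100 µg/ml for 72 h, against 6611 to 7388 CPM in untreated libraries. The collagen genes Col1a1, Col1a2 and Col3a1, also in the list of TGF-beta targets below, averaged 1315, 1508 and 1819 CPM in untreated cells. They thus weigh most in that sum. Of 20 macrophage and other myeloid markers 18 passed the filter, and none was at 0 in every library. They summed to 306 to 337 CPM in untreated libraries, 370 to 488 CPM at 24 h, 695 to 930.5 CPM at 48 h and 1049 to 1837 CPM at 72 h over the 3 doses. The 12 epithelial markers summed to 141 to 208 CPM at 72 h, against 726 to 836 CPM in untreated libraries. All 7 mesothelial markers passed the filter, and they summed to 529.1 to 605 CPM at 1 µg/ml, 458 to 542 CPM at 10 µg/ml and 354 to 399 CPM at 100 µg/ml for 72 h, against 269 to 281 CPM in untreated libraries. At 48 h that sum was 463 to 529.1, 382 to 479.8 and 322 to 387 CPM at the 3 doses, so it was lower at 100 than at 1 µg/ml at both times. The part of these other cells in the levels below was not tested. In bulk RNA, fewer cells of a type and less RNA per cell cannot be told apart.

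**Figure D1:**
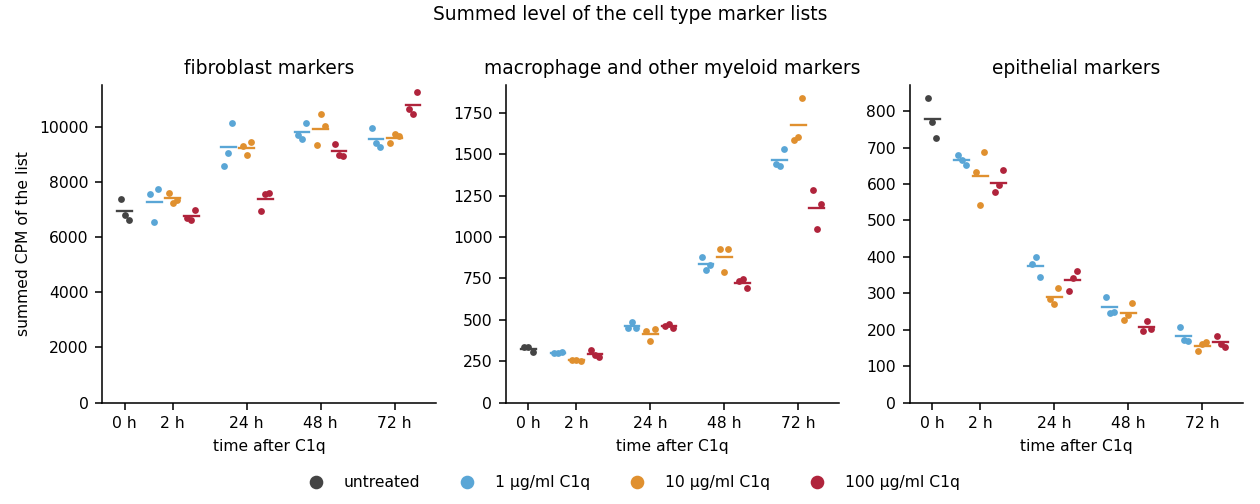
Summed CPM of fibroblast, macrophage and other myeloid, and epithelial marker genes in each library, by group from untreated cells to 72 h. The myeloid sum lies between 1049 and 1837 CPM at 72 h and between 306 and 337 CPM in untreated libraries, while the epithelial sum is lower at each later time.

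Against untreated cells, the members made 57 calls in 108 tests of a gene in a group, 39 higher and 18 lower, where a call is an adjusted p below 0.05 in edgeR's quasi-likelihood test over all 14419 genes. At 2 h, 4, 5 and 2 of the 9 members rose at 1, 10 and 100 µg/ml and none fell. Of all genes 4.28%, 7.64% and 3.14% rose, and 6.15%, 12.7% and 5.16% were called in either direction. Neither DESeq2 nor an unadjusted p under 0.05 gave a fall of any member at 2 h. At 24 h, 4, 4 and 5 members were called at the 3 doses, beside 25.2%, 27.8% and 36.7% of all genes. At 48 h the counts were 6, 5 and 5 members, beside 33.1%, 34.5% and 40%. At 72 h they were 6, 6 and 5 members, beside 38.2%, 39.9% and 45.8%. The median log2 difference of the members at 2 h was 0.32, 0.38 and 0.28 at 1, 10 and 100 µg/ml, against -0.02, -0.03 and -0.03 over all tested genes, and at 72 h it was -0.24, -0.27 and -0.13, against 0.02, 0.02 and 0.05. All 12 comparisons share the same 3 untreated libraries, so calls of one gene in several groups are not independent of each other. The members were chosen with earlier results of these data known, so their counts and medians beside all genes are not an independent test.

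**Figure D2:**
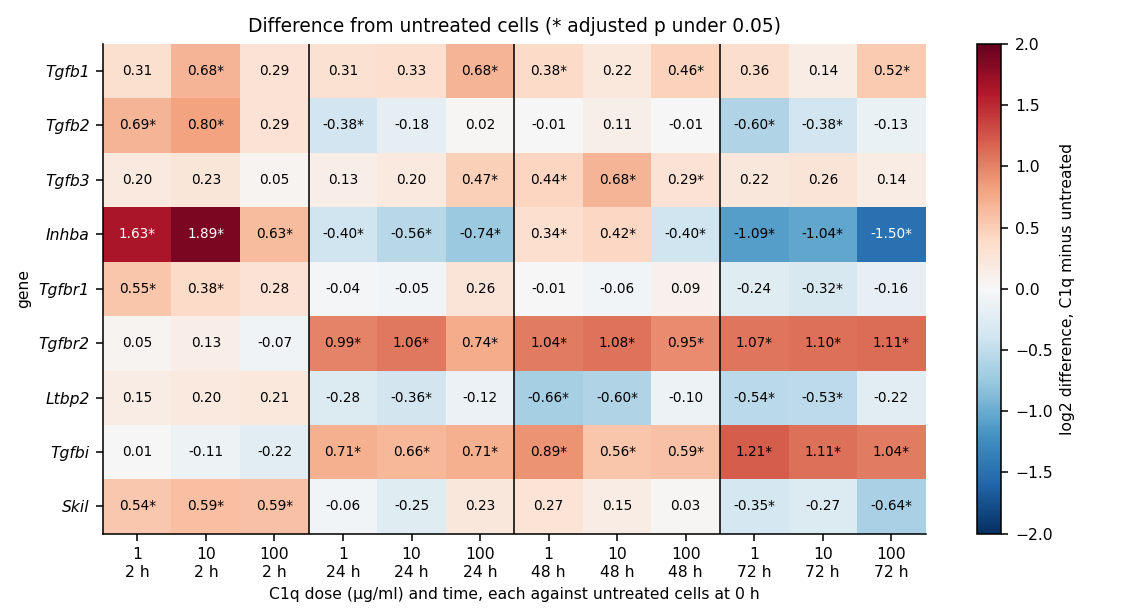
Log2 difference of each of the 9 genes from untreated cells in the 12 treated groups, ordered by time and then dose, with a star where the adjusted p is below 0.05. Inhba is higher at 2 h and lower at 24 and 72 h in all 3 doses, and Tgfbr2 and Tgfbi are higher in each group from 24 h on.

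Inhba, the gene of the activin A subunit, had the widest range of the 9 members. Its mean level was 10.4 times as high in the highest group (10 µg/ml at 2 h) as in the lowest (100 µg/ml at 72 h). Untreated libraries held 159.5, 156 and 162 CPM of Inhba. At 2 h the libraries held 459, 574 and 449.7 CPM at 1 µg/ml, 593, 625 and 547 CPM at 10 µg/ml and 237, 297 and 202 CPM at 100 µg/ml. All 9 libraries of 2 h lay above all untreated ones, and those of 100 µg/ml lay below all of the lower doses. The log2 difference from untreated cells was 1.63 ± 0.10 (SE) at 1 µg/ml, 1.89 ± 0.10 at 10 µg/ml and 0.63 ± 0.11 at 100 µg/ml (edgeR adjusted p = 1.25e-16, 6.56e-19 and 5.61e-05).

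By 24 h the direction of Inhba had turned. Libraries held 135, 113 and 113 CPM at 1 µg/ml, 115, 102 and 107 CPM at 10 µg/ml and 95.4, 96.1 and 95.1 CPM at 100 µg/ml, all below the untreated range. The log2 differences were -0.40 ± 0.11, -0.56 ± 0.11 and -0.74 ± 0.11 (edgeR adjusted p = 0.00477, 1.06e-04 and 7.60e-07). Leaving out library 3 of the 1 µg/ml group, the difference at that dose was -0.36 (edgeR adjusted p = 0.0215).

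At 48 h Inhba split by dose. Libraries held 181, 224 and 201 CPM at 1 µg/ml and 221, 213 and 203 CPM at 10 µg/ml, above the untreated range, and 117, 125 and 119 CPM at 100 µg/ml, below it. The log2 difference from untreated cells was 0.34 ± 0.11, 0.42 ± 0.11 and -0.40 ± 0.11 (edgeR adjusted p = 0.0103, 0.00181 and 0.00321). The rise at 1 µg/ml was not called without untreated library 2 (edgeR adjusted p = 0.0651) or without library 2 of that group (0.0924), while the rise at 10 µg/ml and the fall at 100 µg/ml kept their calls whichever library was left out.

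At 72 h Inhba was at its lowest at each dose, with 69.9, 83.2 and 69.9 CPM at 1 µg/ml, 81.4, 77.5 and 72.9 CPM at 10 µg/ml and 58.8, 50.6 and 60.1 CPM at 100 µg/ml. None of these libraries overlapped the untreated or the 48 h range. The log2 differences from untreated cells were -1.09 ± 0.12, -1.04 ± 0.11 and -1.50 ± 0.12 (edgeR adjusted p = 8.47e-11, 2.07e-10 and 2.06e-14). Inhba overlaps the pseudogene B230303A05Rik on the opposite strand, and whether counting used strand is not given in the sources used here, so reads of the overlapping stretch could belong to either gene.

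**Figure D3:**
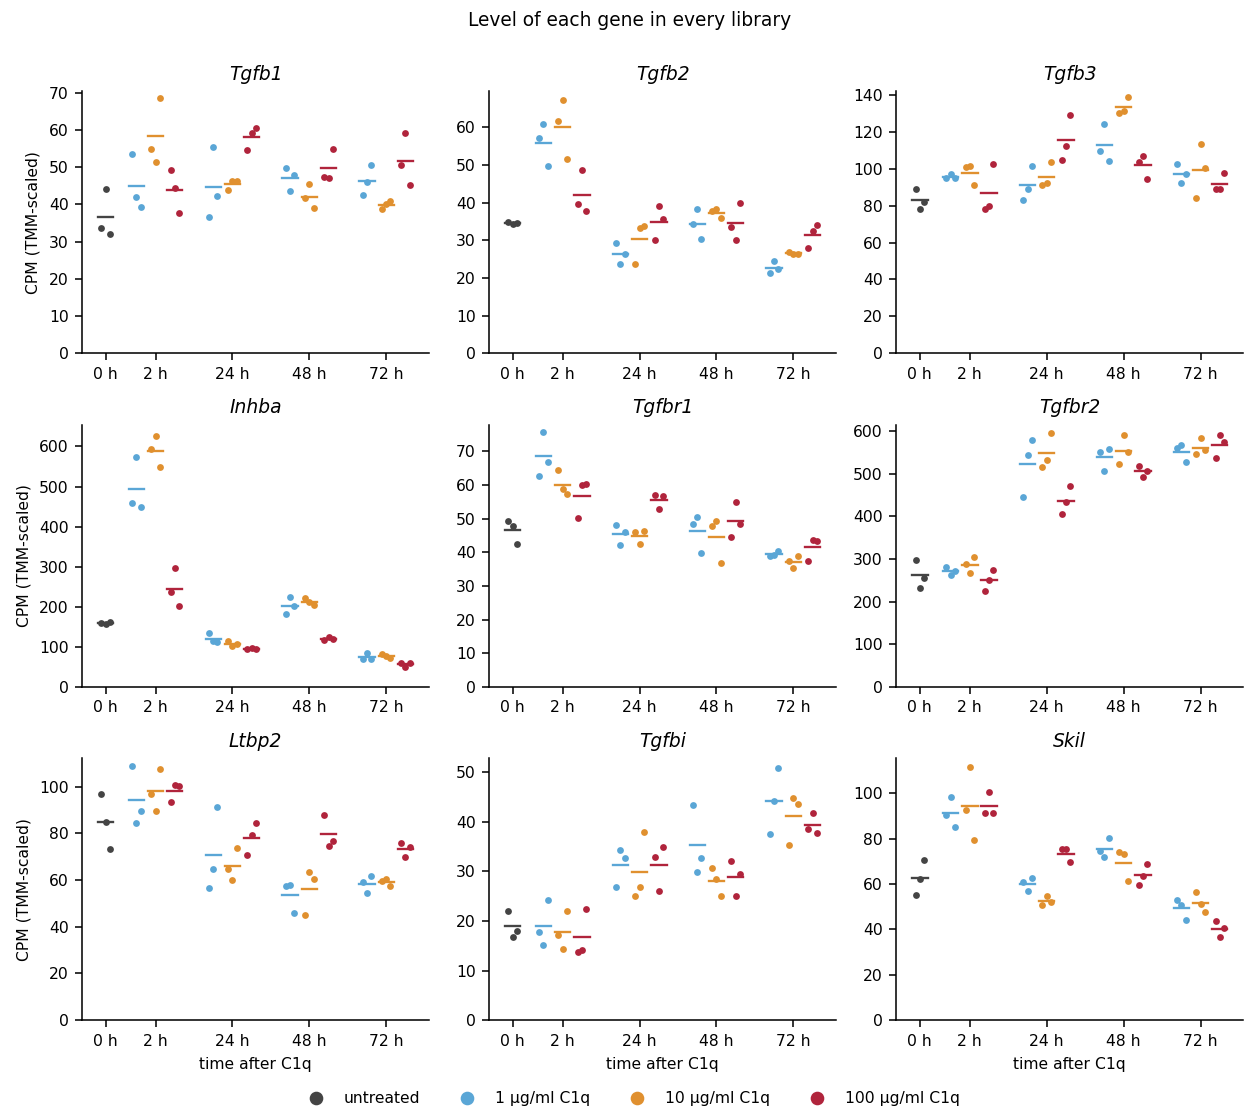
CPM of each of the 9 genes in each of the 39 libraries, 1 panel per gene, by time and dose with untreated cells at the left; points are libraries and bars are group means. Inhba has its highest libraries at 1 and 10 µg/ml for 2 h and its lowest at 72 h, and Tgfbr2 separates untreated and 2 h libraries from all later ones.

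Tgfb2, the second of the TGF-beta ligand genes, followed Inhba at 2 h. It had 34.9, 34.2 and 34.5 CPM in untreated libraries, 57.1, 60.7 and 49.6 CPM at 1 µg/ml, 61.6, 67.1 and 51.6 CPM at 10 µg/ml and 39.6, 48.6 and 37.8 CPM at 100 µg/ml. No library of 2 h fell in the untreated range. Tgfb2 rose by 0.69 ± 0.13 on the log2 scale at 1 µg/ml and by 0.80 ± 0.13 at 10 µg/ml (edgeR adjusted p = 3.54e-04 and 1.68e-05). At 100 µg/ml the difference of 0.29 ± 0.14 missed the threshold (edgeR adjusted p = 0.274). At 72 h Tgfb2 had 21.3, 24.4 and 22.3 CPM at 1 µg/ml, 27.01, 26.3 and 26.4 CPM at 10 µg/ml and 27.9, 32.3 and 34.02 CPM at 100 µg/ml, all below the untreated range. It fell by 0.60 on the log2 scale at 1 µg/ml (edgeR adjusted p = 0.00145). The difference of -0.38 ± 0.15 at 10 µg/ml was called (edgeR adjusted p = 0.036) but not without untreated library 1 or any 1 of the 3 libraries of its own group (0.0565 to 0.0778).

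At 24 and 48 h Tgfb2 was closer to its untreated level. It had 29.4, 23.8 and 26.3 CPM at 1 µg/ml for 24 h, a log2 difference of -0.38 ± 0.15 (edgeR adjusted p = 0.0479). Without the third library of that group the same difference had an edgeR adjusted p of 0.0961, and it was not called either without its second library (0.179) or without any 1 of the 3 untreated libraries (0.0783 to 0.0997). At 10 and 100 µg/ml for 24 h and at the 3 doses for 48 h, Tgfb2 was not called and its group means ran from 30.3 to 37.3 CPM, against 34.5 CPM in untreated cells. Tgfb2 overlaps the RefSeq transcripts Gm26169 and Gm35655, whose reads could not be separated from its own with certainty.

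Tgfb1, whose product is the main TGF-beta of wound repair and fibrosis, had the narrowest range of the 9 members, with its highest group mean 1.59 times the lowest. Libraries of 10 µg/ml for 2 h held 54.97, 51.4 and 68.5 CPM, and untreated libraries 33.7, 44.2 and 31.9 CPM. The groups did not overlap, and Tgfb1 rose by 0.68 ± 0.14 on the log2 scale (edgeR adjusted p = 6.85e-04). At 24 h the libraries held 36.5, 55.4 and 42.4 CPM at 1 µg/ml, 43.9, 46.2 and 46.2 CPM at 10 µg/ml and 54.6, 59.2 and 60.6 CPM at 100 µg/ml. With all libraries the highest dose was the one called, with a log2 difference of 0.68 ± 0.14 (edgeR adjusted p = 1.32e-04). Without untreated library 2 both lower doses were also called, at 0.44 and 0.45 (0.0477 and 0.0402), as was 1 µg/ml without its library 1 (0.0289) but not without its library 3 (0.131). In every treated group the mean of Tgfb1 lay above the untreated mean.

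The later calls of Tgfb1 were less stable. At 48 h it had 49.7, 43.6 and 48.03 CPM at 1 µg/ml, 41.8, 45.4 and 38.998 CPM at 10 µg/ml and 47.3, 47.2 and 54.8 CPM at 100 µg/ml, where libraries 1 and 3 of 10 µg/ml and library 2 of 1 µg/ml lay inside the untreated range. The log2 difference at 1 µg/ml, 0.38 ± 0.15 (edgeR adjusted p = 0.0391), was not called without untreated library 1 or 3 or without library 1 or 3 of the group (0.0919 to 0.267). That at 100 µg/ml, 0.46 ± 0.15 (edgeR adjusted p = 0.0123), was not called without untreated library 1 or 3 or library 3 of the group (0.0742 to 0.108). At 72 h Tgfb1 had 42.6, 46.1 and 50.5 CPM at 1 µg/ml, 38.9, 40.2 and 40.8 CPM at 10 µg/ml and 50.7, 59.2 and 45.2 CPM at 100 µg/ml. The highest dose was called, at 0.52 ± 0.15 (edgeR adjusted p = 0.00323), but not without its library 2 (0.0691), and 1 µg/ml, not called with all libraries, was called without untreated library 2 (0.0211) or its own library 1 (0.0444). Macrophages also express Tgfb1, and the myeloid marker sum was 695 to 1837 CPM at 48 and 72 h, against 306 to 337 CPM in untreated libraries; its part in the later levels was not tested.

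Tgfb3, the third ligand gene, was not called at 2 h or 72 h at any dose. Its untreated libraries held 88.98, 78.4 and 81.7 CPM. At 48 h it had 109.6, 124 and 104 CPM at 1 µg/ml, 130.2, 131 and 139 CPM at 10 µg/ml and 104, 107 and 94.6 CPM at 100 µg/ml, all above the untreated range. It rose by 0.44 ± 0.11 on the log2 scale at 1 µg/ml and by 0.68 ± 0.11 at 10 µg/ml (edgeR adjusted p = 0.00119 and 1.40e-06). The difference at 100 µg/ml for 48 h, 0.29 ± 0.11 (edgeR adjusted p = 0.0317), was not called without untreated library 2 or 3 or without library 1 or 2 of the group (0.103 to 0.151). At 100 µg/ml for 24 h the libraries held 105, 112 and 129 CPM and the log2 difference was 0.47 ± 0.11 (edgeR adjusted p = 4.15e-04). In the GENCODE annotation Tgfb3 overlaps Ttll5, Gm37804 and Gm48008 on the opposite strand.

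Tgfbr2, the type II receptor that binds TGF-beta first, rose in all 9 groups from 24 h on and in none at 2 h. Untreated libraries held 298, 231 and 256 CPM. At 2 h the libraries held 281, 262 and 273 CPM at 1 µg/ml, 287, 268 and 305 CPM at 10 µg/ml and 225, 252 and 274 CPM at 100 µg/ml, overlapping the untreated ones. At 24 h they held 445, 544 and 580.2 CPM at 1 µg/ml, 515, 532 and 596 CPM at 10 µg/ml and 407, 434 and 470.3 CPM at 100 µg/ml. Each of the 27 libraries from 24 to 72 h lay above all 12 untreated and 2 h libraries. The log2 differences at 24 h were 0.99 ± 0.093, 1.06 ± 0.093 and 0.74 ± 0.093 (edgeR adjusted p = 1.03e-11, 1.54e-12 and 1.60e-08), and 0.91 at 1 µg/ml without library 3.

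The level of Tgfbr2 then stayed within a narrow band. At 48 h group means were 538 ± 27.99 CPM at 1 µg/ml, 554 ± 34.6 CPM at 10 µg/ml and 506 ± 12.9 CPM at 100 µg/ml, and at 72 h 552 ± 20.9, 561 ± 19.8 and 567 ± 27.2 CPM (SD, n = 3 each). Log2 differences from untreated cells over these 6 groups ran from 0.95 to 1.11, and no call was lost when any 1 library was left out. The sum of the fibroblast markers also moved, from 24 h on, to 8588 to 11260 CPM, with the exception of 6945 to 7590 CPM at 100 µg/ml for 24 h, against 6611 to 7388 CPM in untreated libraries; its part in the rise of Tgfbr2 was not tested. Tgfbr2 overlaps the RefSeq lncRNA Gm31292.

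Tgfbr1, the type I receptor kinase that passes the signal to the SMADs, did not share this pattern. Untreated libraries held 49.3, 47.9 and 42.6 CPM. At 2 h they held 62.8, 75.9 and 66.9 CPM at 1 µg/ml, 64.4, 58.8 and 57.3 CPM at 10 µg/ml and 50.2, 59.9 and 60.3 CPM at 100 µg/ml, with no overlap with untreated libraries. Tgfbr1 rose by 0.55 ± 0.11 on the log2 scale at 1 µg/ml (edgeR adjusted p = 7.26e-04). The difference at 10 µg/ml, 0.38 ± 0.12 (edgeR adjusted p = 0.0241), was not called without untreated library 2 (0.0583) or 3 (0.149) or library 1 of the group (0.156), and that at 100 µg/ml missed the threshold (0.183). At 10 µg/ml for 72 h it had 37.4, 35.2 and 38.9 CPM and a log2 difference of -0.32 ± 0.12 (edgeR adjusted p = 0.0292), not called without untreated library 1 or without library 1 or 2 of the group (0.0559 to 0.0974). Tgfbr1 was called in no other group, and it overlaps the RefSeq lncRNA Gm32435.

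Ltbp2, a matrix protein of the family that anchors latent TGF-beta, though it does not itself bind the latent ligand, was lower at the later times. Untreated libraries held 96.99, 84.7 and 73.2 CPM. At 48 h it had 57.4, 57.7 and 46.1 CPM at 1 µg/ml, 44.99, 63.3 and 60.3 CPM at 10 µg/ml and 87.8, 74.4 and 76.7 CPM at 100 µg/ml. The libraries of 1 and 10 µg/ml lay below the untreated range and those of 100 µg/ml inside it. Ltbp2 fell at these doses, with log2 differences of -0.66 ± 0.14 and -0.60 ± 0.14 (edgeR adjusted p = 1.30e-04 and 4.52e-04). At 72 h it had 59.2, 54.6 and 61.6 CPM at 1 µg/ml, 59.4, 60.4 and 57.4 CPM at 10 µg/ml and 76.03, 69.7 and 74.1 CPM at 100 µg/ml. Both lower doses again lay below the untreated range, at -0.54 ± 0.14 and -0.53 ± 0.13 (edgeR adjusted p = 0.00122 and 0.00135), and 100 µg/ml was not called at any time.

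At 24 h the level of Ltbp2 at 1 µg/ml depended on 1 library, with 56.6, 64.9 and 91.1 CPM. The difference was not called (-0.28 ± 0.13, edgeR adjusted p = 0.12), and without the third library it was -0.49 and called (edgeR adjusted p = 0.00578). At 10 µg/ml for 24 h, with 64.5, 60.2 and 73.8 CPM, the difference of -0.36 ± 0.13 was called (edgeR adjusted p = 0.0359), but not without untreated library 1 or 2 or without library 1 or 2 of the group (0.0545 to 0.201). Ltbp2 overlaps the lncRNA D030025P21Rik on the opposite strand.

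Tgfbi, which encodes a secreted matrix protein named for its induction by TGF-beta, was not called at 2 h and rose in every group from 24 h on. Untreated libraries held 22.04, 16.8 and 17.9 CPM. At 24 h they held 26.9, 34.3 and 32.6 CPM at 1 µg/ml, 25.03, 26.9 and 37.8 CPM at 10 µg/ml and 32.9, 25.95 and 34.8 CPM at 100 µg/ml. At 72 h they held 37.5, 44.1 and 50.9 CPM at 1 µg/ml, 35.3, 44.8 and 43.4 CPM at 10 µg/ml and 38.5, 41.7 and 37.7 CPM at 100 µg/ml. All libraries from 24 h on lay above the untreated range, and the 3 groups of 72 h had the highest means. The log2 differences at 72 h were 1.21 ± 0.19, 1.11 ± 0.19 and 1.04 ± 0.19 (edgeR adjusted p = 9.10e-07, 4.15e-06 and 1.50e-05).

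Some calls of Tgfbi at 24 and 48 h depended on single libraries. At 24 h the differences at 1 and 100 µg/ml, 0.71 ± 0.19 and 0.71 ± 0.19, kept their calls without any 1 library (edgeR adjusted p = 0.00508 and 0.00333), and without the third library of 1 µg/ml that value was 0.68 (edgeR adjusted p = 0.0182). The difference at 10 µg/ml for 24 h, 0.66 ± 0.20 (edgeR adjusted p = 0.00947), was not called without untreated library 2 or 3 or without library 3 of the group (0.0552 to 0.134). At 48 h the rise of 0.89 ± 0.19 at 1 µg/ml kept its call (edgeR adjusted p = 2.44e-04). Those at 10 and 100 µg/ml, 0.56 ± 0.20 and 0.59 ± 0.21, were not called without untreated library 2 or 3, without library 1 or 2 of 10 µg/ml, or without library 1 or 3 of 100 µg/ml (edgeR adjusted p 0.0528 to 0.135). Macrophages also express Tgfbi. The myeloid marker sum was 370 to 488 CPM at 24 h and 1049 to 1837 CPM at 72 h, against 306 to 337 CPM in untreated libraries, and its part in the rise was not tested.

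Skil, the gene of the SMAD repressor SnoN, was higher at 2 h at every dose. Untreated libraries held 55.3, 62.1 and 70.7 CPM, against which 2 h libraries held 90.4, 98.4 and 84.9 CPM at 1 µg/ml, 92.4, 112 and 79.2 CPM at 10 µg/ml and 91.2, 100.4 and 91.5 CPM at 100 µg/ml. The groups did not overlap. Skil rose by 0.54 ± 0.11, 0.59 ± 0.11 and 0.59 ± 0.11 on the log2 scale (edgeR adjusted p = 6.33e-04, 1.05e-04 and 2.86e-04), and in contrast to Inhba the 3 doses overlapped. At 72 h Skil had 52.8, 50.7 and 44.2 CPM at 1 µg/ml, 56.5, 51.2 and 47.6 CPM at 10 µg/ml and 43.6, 36.6 and 40.5 CPM at 100 µg/ml. It fell by 0.64 on the log2 scale at 100 µg/ml (edgeR adjusted p = 2.83e-05). The difference at 1 µg/ml for 72 h, -0.35 ± 0.12 (edgeR adjusted p = 0.0174), was not called without untreated library 3 (0.108) or library 3 of the group (0.107).

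Doses were then compared at the same time, where time in culture is shared. Between 10 and 1 µg/ml no member was called at any of the 4 times, where 0.839%, 0.0485%, 0.208% and 0% of all genes were called at 2, 24, 48 and 72 h. For these 36 differences the smallest edgeR adjusted p was 0.37, with 3 at an unadjusted p under 0.05 and none called by DESeq2. Leaving out library 3 of the lower dose, the count over all genes at 24 h was 168, against 7 with it. Without it, the 2 doses compared at 24 h also differ in the spelling of their column names. Between 100 µg/ml and either lower dose, 16 calls were made in 72 tests, 5 higher and 11 lower, and 7 of the 11 were Inhba. With all libraries, Tgfb1, Tgfbi and Tgfbr1 were not called in any comparison of doses. For Tgfb1, for instance, the log2 difference of 100 against 1 µg/ml at 24 h was 0.37, with a 95% interval of 0.11 to 0.63 and an edgeR adjusted p of 0.0593. It was 0.57 and called without library 2 of 1 µg/ml (0.0086), and 0.32 and not called without library 3 (0.145).

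At 2 h Inhba was lower at 100 µg/ml than at 1 µg/ml, with means of 245 ± 48.04 against 494 ± 68.99 CPM (SD, n = 3 each), a log2 difference of -1.003 ± 0.10 (edgeR adjusted p = 9.38e-10). It was the 1 member called there, beside 3.22% of all genes. Against 10 µg/ml, with 589 ± 39.04 CPM, the log2 difference was -1.26 ± 0.10 (edgeR adjusted p = 8.54e-13). Tgfb2 was also lower at 100 than at 10 µg/ml, by -0.51 ± 0.13 (edgeR adjusted p = 0.0143), with no overlap of libraries. That call was not made without library 1 or 2 of 10 µg/ml or library 1 or 3 of 100 µg/ml (0.0781 to 0.11). These were the 2 members called between 100 and 10 µg/ml, beside 3.53% of all genes. Skil was not called between doses at 2 h, where its 95% interval for 100 minus 1 µg/ml ran from -0.15 to 0.26.

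At 24 h, 2 members were called between 100 and 1 µg/ml (11% of all genes) and 2 between 100 and 10 µg/ml (10%). Libraries 1 and 2 of 1 µg/ml differ here from all other 24 h libraries in the spelling of their column names. Skil was higher at 100 than at 10 µg/ml, with 75.2, 75.3 and 69.7 CPM against 50.9, 54.9 and 52.1 CPM, by 0.48 ± 0.11 on the log2 scale (edgeR adjusted p = 0.00274). This call was made whichever library was left out. Inhba was lower at 100 than at 1 µg/ml by -0.33 ± 0.11 and Tgfb3 higher by 0.34 ± 0.10 (edgeR adjusted p = 0.0452 and 0.0228). Without the third library of 1 µg/ml these were -0.39 and 0.41 and still called. The call of Inhba was lost without library 1 or 2 of 1 µg/ml or any 1 library of 100 µg/ml (0.0561 to 0.269), and that of Tgfb3 without library 1 or 2 of 1 µg/ml or library 2 or 3 of 100 µg/ml (0.051 to 0.206). Tgfbr2 was lower at 100 than at 10 µg/ml by -0.33 ± 0.091 (edgeR adjusted p = 0.0142), a call lost without library 3 of 10 µg/ml or library 1 or 2 of 100 µg/ml (0.0513 to 0.113). Against 1 µg/ml it was not called, at -0.26 ± 0.091 (edgeR adjusted p = 0.0571), but was without library 1 of 1 µg/ml (0.0104) or library 3 of 100 µg/ml (0.0459), and with DESeq2, RLE scaling or thinned counts. Without library 3 of 1 µg/ml it was -0.20 (edgeR adjusted p = 0.179).

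At 48 h Inhba was again lower at 100 µg/ml, by -0.75 ± 0.11 against 1 µg/ml and -0.82 ± 0.11 against 10 µg/ml (edgeR adjusted p = 3.56e-06 and 6.13e-07). The library values given above do not overlap between 100 µg/ml and either lower dose. Libraries 1 and 2 of 1 µg/ml differ here from all other 48 h libraries in the spelling of their column names. Ltbp2 was higher at 100 µg/ml, by 0.56 ± 0.14 against 1 µg/ml and 0.51 ± 0.14 against 10 µg/ml (edgeR adjusted p = 0.00488 and 0.0137). The first was not called without library 3 of 1 µg/ml (0.0524), nor the second without library 1 of 10 µg/ml (0.159) or of 100 µg/ml (0.0715). Tgfb3 was lower at 100 than at 10 µg/ml by -0.39 ± 0.11 (edgeR adjusted p = 0.0114), but not called without library 3 of either group (0.0679 and 0.0797). That made 2 members called against 1 µg/ml and 3 against 10 µg/ml, beside 10.3% and 9.32% of all genes.

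At 72 h, 2 members were called in each comparison with 100 µg/ml, beside 11.5% of all genes against 1 µg/ml and 10.6% against 10 µg/ml, and each call was lost when a library was left out. Inhba was lower at 100 than at 1 µg/ml by -0.40 ± 0.13 (edgeR adjusted p = 0.0299), but not called without library 2 of either group (0.176 and 0.163). Against 10 µg/ml it was lower by -0.46 ± 0.13 (edgeR adjusted p = 0.0115), but not called without library 1 of 10 µg/ml (0.0541) or library 2 of 100 µg/ml (0.108). Its 3 libraries at 100 µg/ml lay below all 6 of the lower doses. Tgfb2 was higher at 100 than at 1 µg/ml by 0.47 ± 0.16 (edgeR adjusted p = 0.0391), a call lost without any 1 library of 1 µg/ml or library 2 or 3 of 100 µg/ml (0.0527 to 0.148). Skil was lower at 100 than at 10 µg/ml by -0.37 ± 0.12 (edgeR adjusted p = 0.0437), a call lost without library 1 or 2 of 10 µg/ml or library 2 or 3 of 100 µg/ml (0.0873 to 0.238). The myeloid marker sum differed between the same groups, at 1049 to 1283 CPM at 100 µg/ml against 1427 to 1837 CPM at the lower doses. The mesothelial sum given above was also lower at 100 µg/ml, and the part of either in these differences was not tested.

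**Figure D4:**
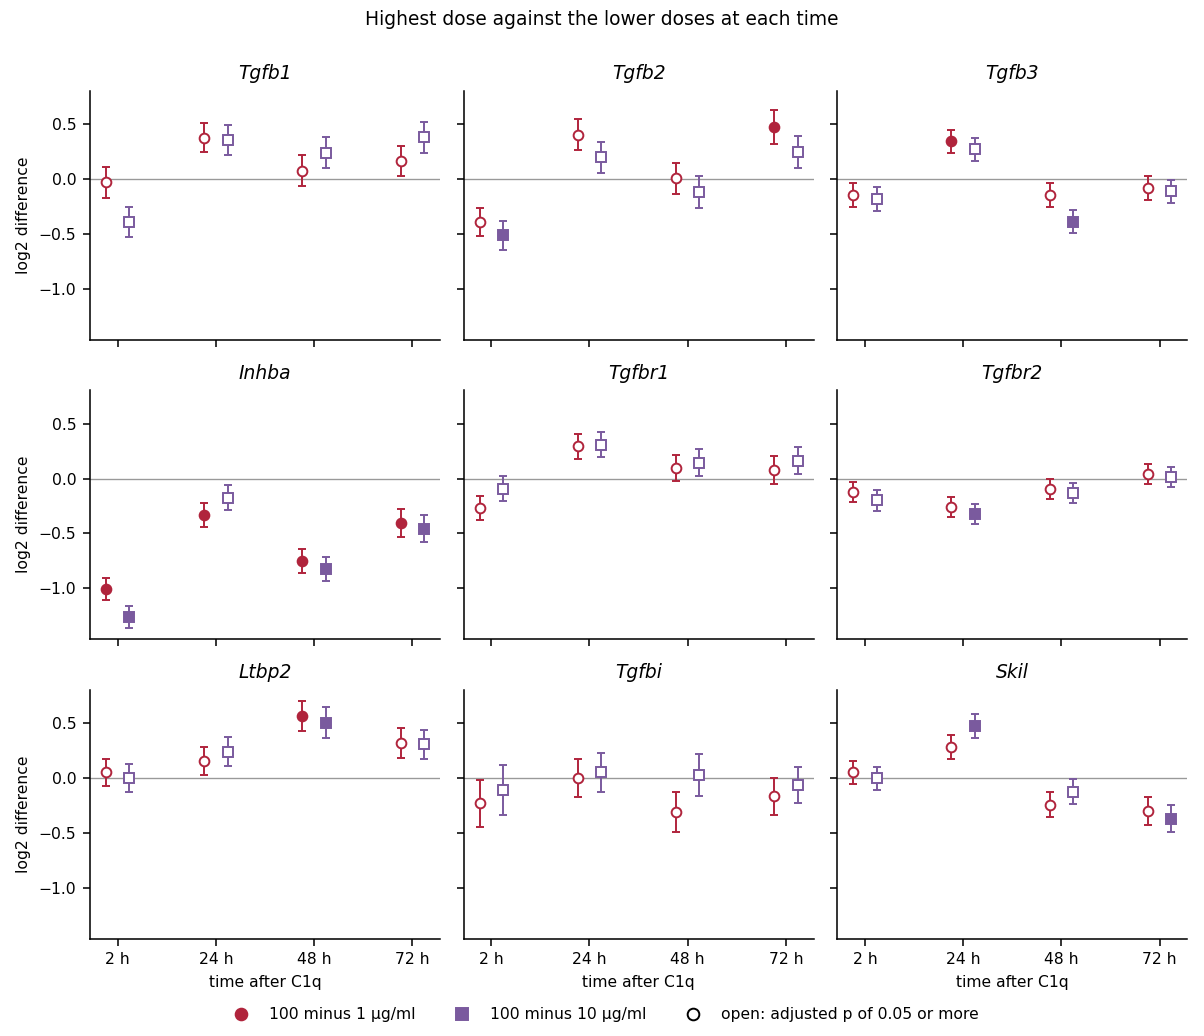
Log2 difference of 100 against 1 µg/ml (circles) and of 100 against 10 µg/ml (squares) at each time for each of the 9 genes, with bars of ± SE and filled marks where the adjusted p is below 0.05. Inhba lies below 0 throughout, most at 2 and 48 h, Skil is above 0 at 24 h and below it at 72 h, and Ltbp2 is highest at 48 h.

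Whether the difference of 100 and 1 µg/ml is the same at the 4 times was tested, and edgeR called 6.78% of all genes. This difference changed with time for 3 members. They were Tgfb2 (edgeR adjusted p = 0.0056), Inhba (0.00603) and Skil (0.0363). For Inhba the difference was -1.003, -0.33, -0.75 and -0.40 at 2, 24, 48 and 72 h. For Tgfb2 it was -0.39, 0.40, 0.0048 and 0.47, and for Skil 0.05, 0.29, -0.24 and -0.30. At 24 h the other spelling of column names is that of all libraries of 100 µg/ml and library 3 of 1 µg/ml. At 48 h it is that of libraries 1 and 2 of 1 µg/ml alone. The doses thus differ in spelling at 24 and 48 h but not at 2 and 72 h, and its part was not tested. The calls of Tgfb2 and Inhba held with each library left out, up to an edgeR adjusted p of 0.0296 and 0.034. That of Skil was lost without any 1 of 15 of the 24 libraries compared (0.0536 to 0.0947). They were libraries 1 and 3 of 1 µg/ml and 1 and 2 of 100 µg/ml for 2 h, libraries 1 and 2 of either dose for 24 h, library 3 of the low and libraries 1 and 2 of the high dose for 48 h, and libraries 1 and 2 of the low and 2 and 3 of the high dose for 72 h.

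Times were compared next over the 3 doses, giving each time 9 libraries. All libraries of 2 h have the common spelling of column names, while most of 24 h have the other. Comparisons of 24 h with 2 h or 48 h thus differ largely in spelling as well as in time. The part of the spelling was not tested. At 24 against 2 h, 7 of the 9 members were called, beside 57.9% of all genes. Inhba averaged 108 CPM at 24 h against 443 CPM at 2 h, a log2 difference of -1.95 ± 0.062, and Skil 62.1 against 93.3 CPM, a difference of -0.60 ± 0.062 (edgeR adjusted p = 2.93e-29 and 2.16e-11). Tgfb2, Ltbp2 and Tgfbr1 also fell, with log2 differences of -0.78, -0.44 and -0.35. Tgfbr2 averaged 503 CPM at 24 h against 269.6 CPM at 2 h, higher by 0.89 ± 0.054, and Tgfbi 30.8 against 17.9 CPM, higher by 0.80 ± 0.11 (edgeR adjusted p = 4.38e-19 and 6.08e-08). For Inhba, Skil, Tgfbr2 and Tgfbi the 9 libraries of one time did not overlap the 9 of the other. Without library 3 of 1 µg/ml for 24 h the log2 differences of Inhba, Skil, Tgfb2, Ltbp2 and Tgfbr1 were -1.94, -0.62, -0.78, -0.51 and -0.36, and those of Tgfbr2 and Tgfbi 0.86 and 0.78, all 7 still called.

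At 48 against 24 h, 3 members rose and none fell, where 12.8% of all genes rose and 24.9% were called in either direction in edgeR's test. Of the other 6, 1 was lower at an unadjusted p under 0.05, namely Ltbp2 at -0.20 ± 0.078 (edgeR adjusted p = 0.051), and DESeq2 did not call it. Ltbp2 was called lower without any 1 of 10 libraries (edgeR adjusted p 0.0139 to 0.0479): libraries 1 and 2 of 1 µg/ml, 1 and 2 of 10 µg/ml and 1 of 100 µg/ml at 24 h, and libraries 1 and 2 of 1 µg/ml, 2 and 3 of 10 µg/ml and 1 of 100 µg/ml at 48 h. It was also called with RLE scaling, with no filter and in thinned counts, so the count of falls turns on these choices. Tgfb2, not called with all libraries, was called higher without any 1 of 6 libraries (edgeR adjusted p 0.0312 to 0.0499). The count of rises thus also turns on single libraries. Inhba averaged 178 CPM at 48 h against 108 CPM at 24 h, a log2 difference of 0.68 ± 0.064 (edgeR adjusted p = 5.87e-12). Tgfb3 was higher by 0.20 ± 0.060, a call lost without library 1 of 100 µg/ml at 24 h (edgeR adjusted p = 0.053). Skil was higher by 0.18 ± 0.065, with a call that was lost without any 1 of 13 libraries (edgeR adjusted p 0.0538 to 0.116): libraries 2 and 3 of 1 µg/ml, 1 and 3 of 10 µg/ml and all of 100 µg/ml at 24 h, and library 3 of 1 µg/ml, 1 and 2 of 10 µg/ml and all of 100 µg/ml at 48 h. Without library 3 of 1 µg/ml for 24 h the log2 differences of Inhba, Tgfb3, Skil and Ltbp2 were 0.65, 0.21, 0.17 and -0.15, and Inhba and Tgfb3 were called. At 72 against 48 h, 6 members were called, beside 16.7% of all genes, and 5 of them fell, beside 8.27%. Inhba averaged 69.4 CPM at 72 h against 178 CPM at 48 h, a log2 difference of -1.33 ± 0.067, with no overlap between the 9 libraries of each time (edgeR adjusted p = 6.78e-21). Skil differed by -0.57 ± 0.068, Tgfb2 by -0.40 ± 0.085, Tgfb3 by -0.26 ± 0.061 and Tgfbr1 by -0.25 ± 0.070, and Tgfbi rose by 0.44 ± 0.10.

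The order of the 13 groups summarises each pattern. For Inhba the ranges of neighbouring groups did not overlap in 7 of 12 steps of the order, for Skil in 3, for Tgfbr2 in 2, for Tgfb2, Tgfb3 and Tgfbi in 1 each, and for Tgfb1, Tgfbr1 and Ltbp2 in none. These steps were not counted over all tested genes, so they do not show whether the members are unusual. Inhba had its top 3 groups at 2 h and its lowest 3 at 72 h, with untreated cells sixth. Skil likewise had its top 3 groups at 2 h and its lowest 3 at 72 h. Tgfbr2 had untreated cells and the 3 groups of 2 h in the lowest 4 places, as had Tgfbi. Over the 13 group means of log2 CPM, Pearson's r was 0.92 between Tgfbr2 and Tgfbi, 0.90 between Tgfb2 and Inhba, 0.89 between Inhba and Skil and -0.85 between Tgfbr2 and Ltbp2. It was 0.87 between Tgfb2 and Tgfbr1, and these are the 5 largest in size among 36 pairs. These values describe group means in which all genes share the libraries and the times.

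Among 10500 tested and named genes, those with a pattern over the 13 group means most like that of Inhba were Thbs1 (r = 0.992), which encodes the TGF-beta activator thrombospondin 1, Noct (0.988) and Pakap (0.983). Nearest to Tgfbr2 were Selenop (0.992), Ccdc152 (0.986) and C1qtnf6 (0.985), and nearest to Tgfbi were Map3k12 (0.977), Eif4a2 (0.966) and Dnmt3a (0.964). For Tgfb2 the nearest was Ppp1r15b (0.965), for Ltbp2 Tln2 (0.974), for Skil Ccn4 (0.935) and for Tgfbr1 Trmt6 (0.941). The nearest of Tgfb1, Neurl4 (0.852), and of Tgfb3, Mbnl1 (0.852), were less alike.

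The other genes of the pathway were taken from 4 lists, also chosen with earlier results of these data known. Of 19 genes of TGF-beta latency and activation 18 were tested. Against untreated cells 2, 7 and 3 of them rose after 2 h at 1, 10 and 100 µg/ml and none fell, with list medians of 0.24, 0.35 and 0.10 on the log2 scale against -0.02, -0.03 and -0.03 over all genes. The share of all genes that rose at 2 h was 4.28%, 7.64% and 3.14%. With 1 library left out, the count of this list at 10 µg/ml ran from 3 to 7. At 72 h 7, 8 and 9 rose and 5, 5 and 4 fell, with list medians of 0.10, 0.18 and 0.28 against 0.02, 0.02 and 0.05. Edge R's test called 38.2%, 39.9% and 45.8% of all genes there in either direction. Thbs1 followed Inhba: it rose by 1.97 ± 0.10, 2.27 ± 0.11 and 0.88 ± 0.10 at 2 h (edgeR adjusted p = 1.63e-19, 7.54e-22 and 2.90e-08). At 72 h Thbs1 fell, with log2 differences of -1.09, -1.08 and -1.84. It was lower at 100 than at 1 µg/ml by -1.09 ± 0.10 at 2 h and by -1.13 ± 0.11 at 48 h (edgeR adjusted p = 1.02e-10 and 5.46e-11).

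Other genes of latency rose late. Ltbp4, which stores latent TGF-beta in the matrix, was higher at 72 h by 2.16, 1.92 and 2.20 on the log2 scale at 1, 10 and 100 µg/ml, and Nrros, a myeloid tether of latent TGF-beta, by 1.66, 1.48 and 1.29. The myeloid marker sum rose over the same times, as given above, and its part in the level of Nrros was not tested. The integrin subunit gene Itgb5 was higher at 72 h by 1.63, 1.75 and 2.02. Itgb6, the subunit of an epithelial integrin that activates TGF-beta, fell, with log2 differences of -1.77, -1.58 and -0.87, as the epithelial marker sum fell to 141 to 208 CPM, against 726 to 836 CPM in untreated libraries, and the part of that fall was not tested.

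All 14 genes of the second list, receptors, co-receptors and activin inhibitors, were tested. At 2 h 1 of them rose at each dose and none fell, beside 4.28%, 7.64% and 3.14% of all genes that rose. That gene was Fst, whose product follistatin binds and neutralises activin. Fst rose by 1.44 ± 0.13, 2.105 ± 0.13 and 0.91 ± 0.13 at 1, 10 and 100 µg/ml, with means of 123, 196 and 85.1 CPM against 45.6 CPM in untreated cells (edgeR adjusted p = 5.99e-12, 6.93e-18 and 4.38e-06). At 72 h it fell, with log2 differences of -0.71, -0.63 and -1.43. It was lower at 100 than at 10 µg/ml at all 4 times, with log2 differences of -1.19, -0.67, -0.93 and -0.81 at 2, 24, 48 and 72 h. At 72 h 4, 5 and 6 genes of the list rose and 1 fell at each dose, with list medians of 0.30, 0.20 and 0.26 against 0.02, 0.02 and 0.05 over all genes. The share of all genes called there in either direction was 38.2%, 39.9% and 45.8%. Inha, the inhibin alpha subunit that pairs with the product of Inhba, was higher at 72 h by 1.54, 1.49 and 1.70.

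All 17 genes of SMAD transducers and repressors were tested. At 2 h 3, 9 and 5 of them rose at 1, 10 and 100 µg/ml and 1, 1 and 0 fell, with list medians of 0.28, 0.35 and 0.16 against -0.02, -0.03 and -0.03 over all genes. The share of all genes that rose at 2 h was 4.28%, 7.64% and 3.14%, and 6.15%, 12.7% and 5.16% were called in either direction. At 72 h 6, 7 and 9 of the list rose and none fell, with list medians of 0.23, 0.27 and 0.40 against 0.02, 0.02 and 0.05. Of all genes 38.2%, 39.9% and 45.8% were called there in either direction. The counts at 2 h moved with single libraries, from 6 to 9 at 10 µg/ml and from 2 to 5 at 100 µg/ml with 1 library left out. At 1 µg/ml for 24 h 5 rose and 1 fell, beside 25.2% of all genes called. Without library 3 of that group 2 of the list rose and none fell. Smad3, which carries the signal of TGF-beta and activin to the nucleus, rose by 0.73 ± 0.15 and 0.76 ± 0.15 after 2 h of the lower doses (edgeR adjusted p = 6.30e-04 and 2.28e-04).

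Of 39 genes that TGF-beta is known to induce in fibroblasts 37 were tested. At 2 h 17, 19 and 9 of them rose at 1, 10 and 100 µg/ml and 0, 0 and 1 fell, with list medians of 0.30, 0.32 and 0.11 against -0.02, -0.03 and -0.03 over all genes. The share of all genes that rose at 2 h was 4.28%, 7.64% and 3.14%, and 6.15%, 12.7% and 5.16% were called in either direction. With 1 library left out, the count of risen targets at 100 µg/ml ran from 5 to 8. At 24 h 11, 8 and 5 rose and 9, 12 and 12 fell, and without the third library of 1 µg/ml 9 rose and 8 fell at that dose. The list medians at 24 h were -0.03, -0.004 and -0.07 against 0.01, 0.02 and 0.05 over all genes, of which 25.2%, 27.8% and 36.7% were called. At 48 h 14, 13 and 12 rose and 12, 12 and 14 fell, with list medians of 0.02, 0.002 and -0.09 against 0.02, 0.02 and 0.04, beside 33.1%, 34.5% and 40% of all genes called. With 1 library left out, the rises at 100 µg/ml for 48 h numbered 8 to 11 and those at 1 µg/ml for 24 h 6 to 10. At 72 h 9, 9 and 12 rose and 17, 16 and 16 fell, with list medians of -0.26, -0.29 and -0.16 against 0.02, 0.02 and 0.05, beside 38.2%, 39.9% and 45.8% of all genes called.

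Ccn2, a matrix-associated growth regulator, rose by 1.18 and 1.33 at 1 and 10 µg/ml for 2 h and fell, with log2 differences of -1.45, -1.49 and -1.82 at the 3 doses for 72 h. Ccn1, a relative of Ccn2, was higher by 0.78 and 0.79 at 1 and 10 µg/ml for 2 h, with a log2 difference of -0.70 at 100 µg/ml (edgeR adjusted p = 3.53e-05, 2.14e-05 and 9.99e-04), and its log2 differences at 72 h were -1.47, -1.47 and -1.72. Il11, a cytokine of fibroblast activation, was higher by 2.11, 2.47 and 1.56 at 2 h. Angptl4, a secreted regulator of lipid uptake, was higher at both times, by 1.66 and 2.09 at 1 and 10 µg/ml for 2 h and by 1.56, 1.55 and 2.28 at 72 h. Matrix genes of the list went both ways at 72 h, though at different doses, with ranges given over the alternative runs described below. Opposite directions at one dose are not shown by these values. Eln was higher by 1.80 to 2.02 at 1 µg/ml and 1.67 to 1.82 at 10 µg/ml, and Fn1 by 1.44 to 1.66 and 1.455 to 1.68. Cthrc1 was lower at 100 µg/ml, with log2 differences of -2.08 to -1.76.

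The target list was also compared by dose. At 2 h 0 of its 37 tested genes were higher and 10 lower at 100 than at 1 µg/ml, and 0 higher and 15 lower than at 10 µg/ml, with list medians of -0.17 and -0.26 against -0.02 and -0.01 over all genes. At 48 h 4 were higher and 14 lower than at 1 µg/ml, and 5 higher and 14 lower than at 10 µg/ml, with list medians of -0.18 and -0.11 against -0.01 and -0.01 and beside 10.3% and 9.32% of all genes called. With 1 library left out, 2 to 4 were higher and 11 to 13 lower than at 10 µg/ml. Of all genes 3.22% and 3.53% were called in these comparisons at 2 h. The split was less one-sided at the other times. At 24 h 4 were higher and 11 lower than at 1 µg/ml, and 6 higher and 7 lower than at 10 µg/ml. At 72 h 7 were higher and 10 lower than at 1 µg/ml, and 5 higher and 10 lower than at 10 µg/ml. Of all genes 11% and 10% were called at 24 h, and 11.5% and 10.6% at 72 h.

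**Figure D5:**
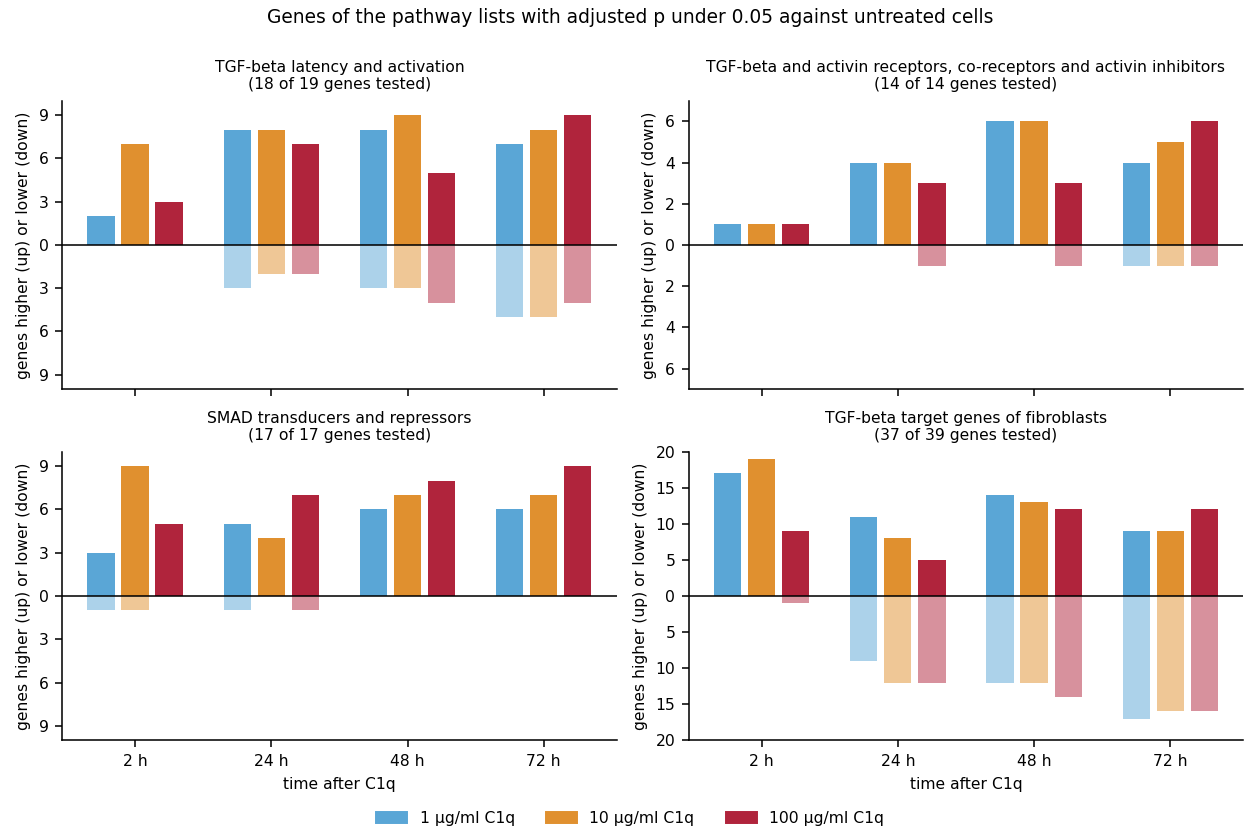
Number of genes of each of 4 TGF-beta pathway lists higher (upward bars) and lower (downward bars) than in untreated cells, by time and dose, at an adjusted p below 0.05. Of the 37 tested target genes, 17, 19 and 9 are higher after 2 h at 1, 10 and 100 µg/ml, and 17, 16 and 16 are lower at 72 h. Over all tested genes, 4.28%, 7.64% and 3.14% are higher at 2 h, and 38.2%, 39.9% and 45.8% are called in either direction at 72 h.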

How the data were processed

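The authors deposited 1 table of raw read counts per gene name, with 39 columns of whole numbers, 3 for each of 13 groups, and totals of 1806106 to 3012518 counts. Per the submitters' processing notes, cutadapt 2.1.0 and Bowtie2 2.4.2 were used with the build GRCm38. Not given in the sources used here are the counting tool, the annotation, and the use of strand and molecular identifiers. Columns were matched to samples by the serial number in their names, 9 of which are spelled differently from the rest, and groups come from the labels.

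Counts were tested with edgeR 4.0.16 (R 4.3.3) by the quasi-likelihood test in 1 fit of all 39 libraries with a mean per group. TMM scaling and edgeR's default filter were used, which kept 14419 genes with 99.4% of the counts. The 28 comparisons were the 12 treated groups against untreated cells, 12 pairs of doses, 3 pairs of neighbouring times over doses, and the interaction of dose (100 against 1 µg/ml) and time. P-values were adjusted by Benjamini-Hochberg over all tested genes of a comparison, with a threshold of 0.05. SE is the log2 difference divided by the square root of F. The code was tested on simulated data. DESeq2 1.42.0, RLE scaling, no filter, thinned counts, a threshold of 0.01, fits of only the libraries compared and leaving out each library were alternatives. Figures were drawn with matplotlib 3.10.9.

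Since the labels name no separate culture or animal for each library, p-values reflect only how much these libraries vary, which may be technical. A chi-square test of replicate pairs gave 1.31 to 8.48 per degree of freedom over 39 pairs, and none agreed within sampling noise.

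The members and lists were chosen with earlier results of these data known. Named were all 9 members, up to 6 genes of each pathway list per comparison with the largest log2 difference among those called with a mean log2 CPM of at least 3, and the 3 genes most alike to each member in group means of log2 CPM (prior count 2). Values of a gene so named are also given in other groups. Coordinates and promoter windows are from RefSeq for GRCm38.p6, matched by symbol.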

Additional observations from a re-analysis of the deposited data

Results flagged for a closer look

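The difference of 100 and 1 µg/ml of C1q was not the same at the 4 times for 3 of the 9 members, by a test of that interaction itself. Tgfb2 had an edgeR adjusted p of 0.0056, with log2 differences of -0.39, 0.40, 0.0048 and 0.47 at 2, 24, 48 and 72 h. Inhba had an edgeR adjusted p of 0.00603, with differences of -1.003, -0.33, -0.75 and -0.40, all in one direction. Skil had an edgeR adjusted p of 0.0363, with differences of 0.05, 0.29, -0.24 and -0.30, and its call depended on single libraries. At 24 and 48 h these doses also differ in the spelling of column names, and its part was not tested. No group had 4 or more libraries, so single libraries were not tested as outliers.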

How the results depend on the processing

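Of 92 called differences of a member, 62 were called under every alternative run. The number of calls against untreated cells was 57 and ran from 45 (adjusted p under 0.01) to 60 (fits of only the libraries compared), with 48 by DESeq2 and 50 to 59 with 1 library left out. Between times there were 16 calls, and 13 to 18 under the alternatives, with 15 to 18 when 1 library was left out. The interaction gave 3 calls, and 2 to 4 with 1 library left out. Between doses there were 16 calls, 6 of which had an adjusted p under 0.01, and 12 to 17 with 1 library left out. In the columns of the common header spelling, 46 calls were made against untreated cells where the same tests gave 48 in all libraries, and 11 against 12 between doses. Those columns hold library 3 alone of 1 µg/ml for 48 h, so fewer libraries as well as spelling enter these counts. Tgfbi at 100 against 1 µg/ml for 2 h, not called, changed sign in thinned counts, to 0.000539 on the log2 scale, and the cause was not tested.

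Counts of called genes over the whole table moved by more than 1.5 times with single libraries in most comparisons of doses. Between 100 and 1 µg/ml at 2 h, 465 genes were called and 233 without library 2 of 1 µg/ml. Between 100 and 10 µg/ml at 2 h, 509 were called and 295 without library 1 of 100 µg/ml. Between 10 and 1 µg/ml at 48 h, 30 were called, and 15 by DESeq2 and 78 with no filter. Against untreated cells, 887 genes at 1 µg/ml for 2 h became 567 without untreated library 1, and 744 at 100 µg/ml for 2 h became 466 without untreated library 2. The columns of the common header spelling hold library 3 alone of 1 µg/ml for 48 h, so their counts for that group are not given. The interaction called 978 genes and 1473 without library 3 of the 1 µg/ml group at 24 h. No paired analysis was possible because the labels give the libraries serial numbers and no replicate number that groups share.

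Members with few counts set the limits of depth: at a total of 1806106 to 3012518 counts, differences of Tgfb1, Tgfb2, Tgfbr1 and Tgfbi had SEs of 0.113 to 0.225 on the log2 scale against untreated cells, and a difference not called there may still exist. PCR duplicates cannot be judged, and errors cover the spread of these libraries.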

Other observations

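The pathway lists held further differences over time. Ccn1, which encodes a matrix-associated protein of the CCN family, had the largest log2 difference of the listed genes both at 48 against 24 h and at 72 against 48 h. It had means of 51.9, 49.8 and 59.7 CPM at 1, 10 and 100 µg/ml for 24 h and of 418, 449 and 316 CPM for 48 h, beside 137 CPM in untreated cells. Over the doses the log2 difference of 48 against 24 h was 2.86 ± 0.082, and that of 72 against 48 h was -3.06 ± 0.085 (edgeR adjusted p = 5.17e-30 and 8.47e-31). Inhba moved in the same directions between these times, by 0.68 and -1.33.

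Mmp2, a gelatinase that can release latent TGF-beta, was higher than in untreated cells at 72 h by 1.62, 1.51 and 1.67 on the log2 scale at 1, 10 and 100 µg/ml, and Ltbp3, which binds latent TGF-beta, by 1.33, 1.28 and 1.41. Ltbp2, of the same family as Ltbp3, was lower at 1 and 10 µg/ml at that time. Ldlrad4, a membrane protein that restrains SMAD activation, was higher at 72 h by 0.86, 0.72 and 0.82.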
